A study of Mus musculus with 6 samples.

Results

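Lysosome genes were followed in mouse embryonic stem cells that are heterozygous for Srrm2, a gene whose product is found in the spliceosome and in nuclear speckles. The set held 36 genes of the 42450 in the deposited table: 34 genes for lysosomal hydrolases, their cofactors, lysosomal membrane proteins and subunits of the proton pump, and the transcription factor genes Tfeb and Tfe3. They were chosen by name for these roles, with earlier results of these data known. The wild-type (WT) group was the male line E14tg2a.4, and the Srrm2+/- group was the gene-trap line CG0630, which was made from E14tg2a.4 and carries a trap cassette in exon 1 of 1 Srrm2 allele. Each group had 3 libraries of total RNA, one from each of 3 separately frozen and thawed batches. Both groups were grown with LIF on gelatin and moved to serum-free medium with LIF before harvest. The Srrm2+/- line is 1 clone, and it was frozen at lower passage numbers than WT, so genotype, clone and passage cannot be told apart in this comparison.

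Lysosomes are acidic organelles in which hydrolases break down proteins, glycans, lipids and nucleic acids that arrive by endocytosis and autophagy. A proton pump of many subunits, the V-ATPase, keeps their lumen acidic, and heavily glycosylated membrane proteins line it. TFEB, TFE3 and MITF belong to 1 family of basic helix-loop-helix factors (MiT-TFE) that bind E-box sequences in the promoters of many lysosome and autophagy genes. When mTORC1 is active at the lysosome it keeps TFEB and TFE3 in the cytoplasm, and in mouse embryonic stem cells nuclear TFE3 is known to sustain self-renewal.

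Library totals lay between 54151433 and 69933421 estimated counts, the log2 CPM of libraries correlated at 0.985 to 0.989 within groups and at 0.971 to 0.975 between them, and 18905 genes were tested. CPM are counts scaled to a common library size (after TMM scaling), and calls were made in edgeR where the adjusted p fell under 0.05. Srrm2 itself was measured at 91.2, 98.3 and 97.7 CPM in WT and at 62.3, 56.2 and 59.6 CPM in Srrm2+/-, in the direction of the labels (log2 fold change -0.69, SE 0.05, edgeR adjusted p = 2.38e-05). The embryonic stem cell marker Pou5f1 stood at 810 to 863 CPM in the 6 libraries. Of the 10 stem cell markers 7 were called lower and 1 higher, and their summed level went from 5478-5670 CPM to 4670-4810 CPM. Macrophage markers summed to 3.01-4.12 CPM in WT and 3.47-3.69 CPM in Srrm2+/-, with 0 of 4 tested called. Extraembryonic endoderm markers summed to 36.2-40.2 and 72.1-79.5 CPM, nearly all of it Sparc, with Sparc and Dab2 called higher among 6 tested and Afp at 0 counts in every library. Fibroblast markers summed to 3.77-3.88 and 6.84-10.2 CPM, with 3 of 6 tested called higher (Col1a1, Col1a2 and Col3a1, with log2 fold changes of 1.13, 3.89 and 2.28). Col1a2 had only 6, 15 and 12 counts in the WT libraries. The uncalled Thy1, Pdgfra and Pdgfrb had log2 fold changes of -0.70, -0.39 and 0.23. The part of these cell type markers in the lysosome results was not tested.

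All 36 genes passed the filter on low counts. In Srrm2+/- 12 of them were called lower, 1 higher and 23 neither way. The share called lower was 33.3%, beside 11.7% of all tested genes, and the share called higher was 2.78%, beside 13.6%. Among genes with a mean of at least 10 CPM, a limit chosen after the values were seen, 17.7% of all tested genes were called lower and 15.4% higher. Of the 36 genes 30 reached this level, and 12 of them were called lower and 1 higher. On the log2 scale the median change was -0.06 over the 36 genes and 0.00 over all tested genes, with 26 of the 36 and 50.3% of all tested genes below 0. At 10 CPM or more the medians were -0.12 for the genes of the set and -0.01 for all. The changes were small in size: apart from Tfeb, none of the called genes moved by 0.5 or more on the log2 scale. Summed over the 36 genes the libraries held 3024, 3089 and 3123 CPM in WT and 2975, 2850 and 2802 CPM in Srrm2+/-, which put the Srrm2+/- mean at 93.4% of WT. The groups did not overlap in that sum. In these bulk libraries fewer cells of a type and less RNA per cell cannot be told apart.

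For 14 of the 36 genes every Srrm2+/- library lay below every WT library, and for 4 every one lay above. The background shares of such genes were 20.0% lower and 21.4% higher.

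**Figure D1:**
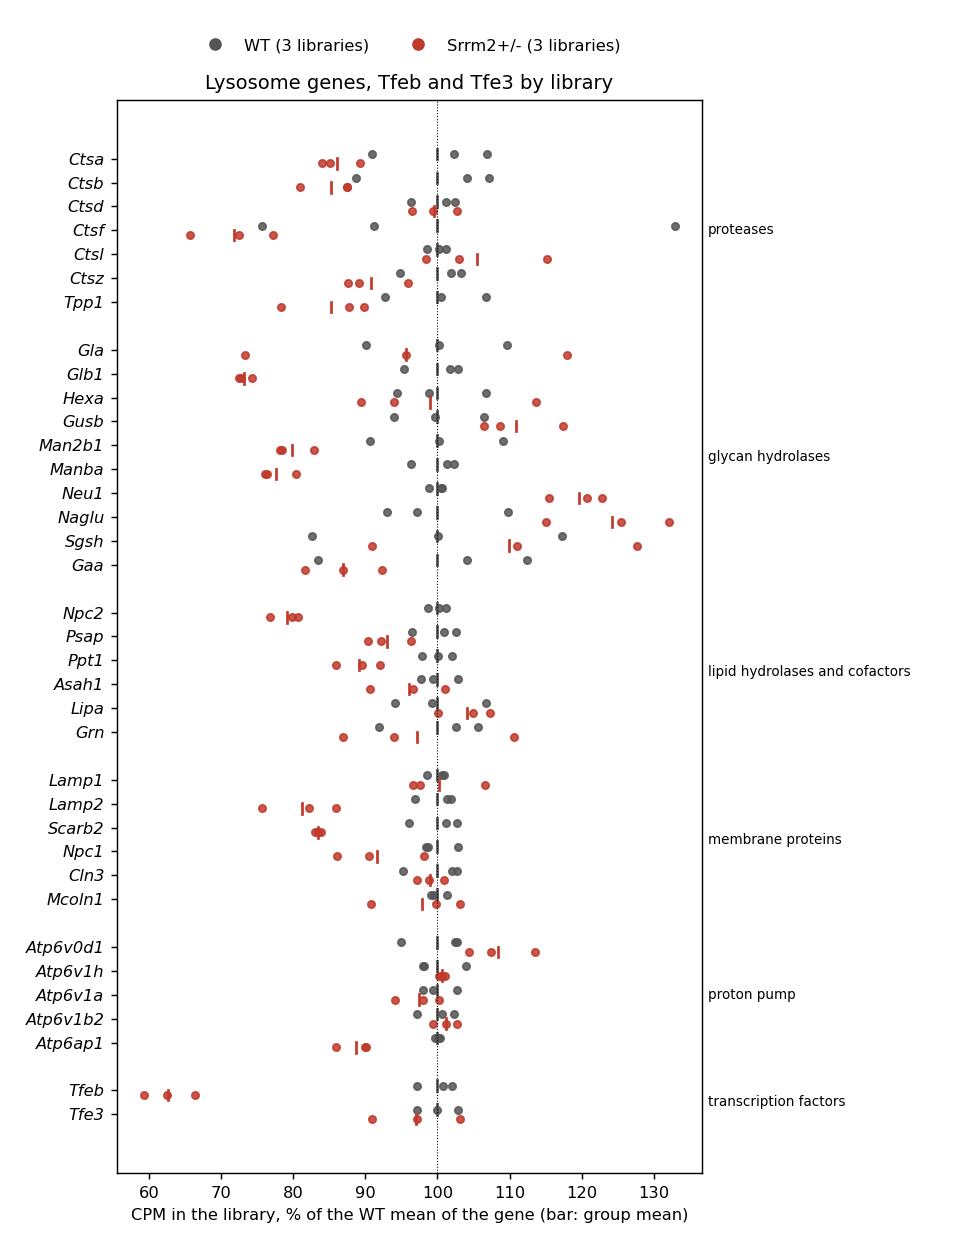
CPM of the 36 genes in each library, as a percent of the WT mean of the gene (x axis), with WT in grey, Srrm2+/- in red, small bars at the group means and genes grouped by role. Tfeb sits farthest to the left in Srrm2+/-, at 62.7% of WT, and Neu1 and Naglu lie to the right without overlap.

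Of the transcription factors, Tfeb fell and Tfe3 did not pass the test. Tfeb (ENSMUSG00000023990, chr17:47737030-47792419 on GRCm38, plus strand) encodes a main activator of lysosome genes. It was measured at 28.1, 29.1 and 29.5 CPM in WT and at 19.2, 17.1 and 18.0 CPM in Srrm2+/-. All Srrm2+/- libraries were low, and the gap between the groups was wider than the range within either (log2 fold change -0.67, SE 0.06, edgeR adjusted p = 4.98e-05). Tfe3 (ENSMUSG00000000134, chrX:7762560-7775202, plus strand), its paralog with a known role in stem cell self-renewal, was measured at 52.4, 51.0 and 54.0 CPM in WT and at 54.1, 47.7 and 51.0 CPM in Srrm2+/-. The Tfe3 libraries of the 2 groups overlapped (log2 fold change -0.04, 95% interval -0.17 to 0.08). The intervals of Tfeb (-0.80 to -0.55) and Tfe3 did not meet. The level of Tfeb per kilobase of exon, divided by that of Tfe3, was 0.875, 0.932 and 0.891 in WT and 0.578, 0.586 and 0.578 in Srrm2+/-.

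The other members of the factor family came from a list on the control of these factors. Mitf, which encodes the factor best known from pigment cells, was measured at 30.1, 31.1 and 27.4 CPM in WT and at 10.4, 10.7 and 9.81 CPM in Srrm2+/-. It fell to 34.9% of WT, and its 95% interval on the log2 scale (-1.67 to -1.37) did not meet that of Tfeb (log2 fold change -1.52, SE 0.07, edgeR adjusted p = 1.35e-06). Tfec, the last of the family, had 0 counts in every library. Thus, 2 of the 3 detected family genes were lower and the groups overlapped in the other. On the scale of CPM per kilobase of exon the WT means were 5.67 for Tfe3, 5.09 for Tfeb and 4.77 for Mitf. With the longest transcript as the length, Tfeb came first at 12.3, before Tfe3 at 8.29 and Mitf at 6.05, so the order of levels between these genes rests on the length used.

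**Figure D2:**
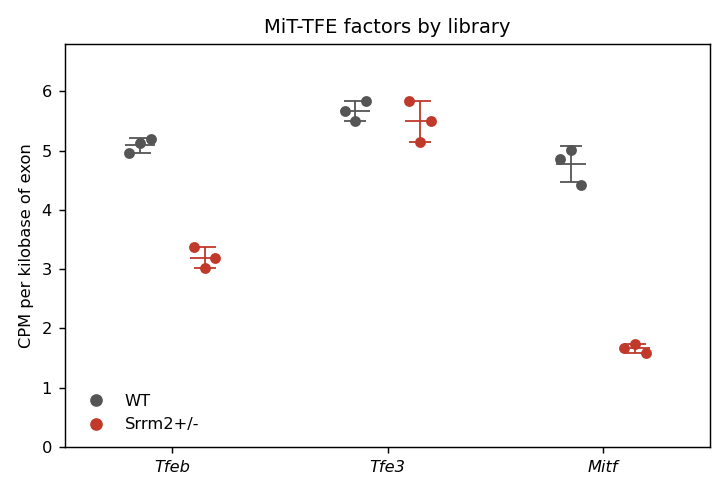
Level of Tfeb, Tfe3 and Mitf in CPM per kilobase of exon (y axis) in WT (grey) and Srrm2+/- (red), with points for libraries, a wide bar for the mean and error bars of 1 SD (n = 3). Tfeb and Mitf are lower in every Srrm2+/- library, and the Tfe3 libraries of the groups overlap.

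Among the called lysosomal enzymes and membrane proteins of the set, the falls of largest size were those of the glycan hydrolase genes Glb1 and Manba, and the only rise called among the 36 genes, Neu1, was in this role too. Of 10 genes 3 were called lower and 1 higher, and their summed CPM in Srrm2+/- was 87.2% of WT. Glb1 (ENSMUSG00000045594, chr9:114401076-114474898, plus strand) encodes beta-galactosidase, the enzyme deficient in GM1 gangliosidosis. It was measured at 63.5, 67.9 and 68.6 CPM in WT and at 48.3, 48.5 and 49.5 CPM in Srrm2+/- (log2 fold change -0.45, SE 0.04, edgeR adjusted p = 0.000113). The Srrm2+/- values were tight and far below the lowest WT library.

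Both mannosidases of the set fell with it. Manba, the gene for the beta-mannosidase that acts late in the breakdown of N-glycans, was measured at 148, 150 and 141 CPM in WT and at 111, 118 and 112 CPM in Srrm2+/- (log2 fold change -0.37, SE 0.04, edgeR adjusted p = 0.000292). Man2b1, the gene for the alpha-mannosidase, was measured at 23.0, 25.5 and 27.7 CPM in WT and at 19.9, 19.9 and 21.1 CPM in Srrm2+/- (log2 fold change -0.32, SE 0.07, edgeR adjusted p = 0.00972). Neither gene had overlapping groups. Neu1 (ENSMUSG00000007038, chr17:34931253-34935953, plus strand) encodes the lysosomal sialidase, which removes terminal sialic acids. It went the other way, from 29.9, 29.3 and 29.9 CPM in WT to 36.5, 34.3 and 35.9 CPM in Srrm2+/- (log2 fold change 0.26, SE 0.05, edgeR adjusted p = 0.00328). In the lysosome the sialidase, beta-galactosidase and protective protein/cathepsin A form a complex, and their genes Neu1, Glb1 and Ctsa moved in different directions: 1 rose and 2 fell.

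The remaining glycan hydrolases were not called. Naglu, an enzyme of heparan sulfate breakdown, had 3.06, 3.46 and 2.93 CPM in WT and 3.63, 4.16 and 3.96 CPM in Srrm2+/-. These groups did not overlap, but the gene missed the threshold at this low level (log2 fold change 0.31, SE 0.12, edgeR adjusted p = 0.103). Gusb, the gene for beta-glucuronidase, was also higher in each Srrm2+/- library without a call (log2 fold change 0.15, 95% interval -0.04 to 0.34). Gaa, the gene for acid alpha-glucosidase, had overlapping groups and a log2 fold change of -0.20 (95% interval -0.44 to 0.03). Hexa, which encodes the alpha subunit of beta-hexosaminidase, stood at -0.01 on the log2 scale (95% interval -0.21 to 0.18), and 1 Srrm2+/- library (111 CPM) lay above all others. Gla, the gene for alpha-galactosidase A, and Sgsh, the gene for heparan N-sulfatase, stood at -0.06 and 0.13 with overlapping groups, and Sgsh was the lowest of the 36 genes per kilobase.

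Of the 7 proteases 3 were called lower, each with a small change. Ctsa, the gene for protective protein/cathepsin A, was measured at 111, 131 and 125 CPM in WT and at 109, 103 and 104 CPM in Srrm2+/-. The lowest WT library was close to the highest Srrm2+/- library (log2 fold change -0.22, SE 0.06, edgeR adjusted p = 0.0279). Ctsb, the gene for the cysteine protease cathepsin B, was measured at 47.5, 57.3 and 55.7 CPM in WT and at 46.8, 46.8 and 43.3 CPM in Srrm2+/- (log2 fold change -0.23, SE 0.07, edgeR adjusted p = 0.0462). Again WT replicate 1 nearly met the Srrm2+/- libraries. Tpp1, the gene for a tripeptidyl peptidase lost in a childhood ceroid lipofuscinosis, had 20.4, 23.5 and 22.1 CPM in WT and 17.3, 19.3 and 19.8 CPM in Srrm2+/- (log2 fold change -0.23, SE 0.07, edgeR adjusted p = 0.0468). These calls were close to the threshold: Ctsa lost its call under 6 of 14 alternative settings, Ctsb under 8 and Tpp1 under 9, each of them without WT replicate 2 or 3 and without Srrm2+/- replicate 2 or 3, among others.

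The most abundant proteases did not pass the test. Ctsl, the gene for cathepsin L, had 228, 234 and 232 CPM in WT and 267, 238 and 228 CPM in Srrm2+/-, so that the groups overlapped (log2 fold change 0.08, 95% interval -0.05 to 0.21). Ctsd, the gene for the aspartic protease cathepsin D, had 183 to 195 CPM in WT and the same span in Srrm2+/- (log2 fold change -0.01, 95% interval -0.10 to 0.09). Ctsz, the gene for the carboxypeptidase cathepsin Z, stood at -0.14 with overlapping groups. Ctsf, the gene for cathepsin F, had only 3.20 to 5.62 CPM in WT and 2.77 to 3.26 CPM in Srrm2+/-, and the difference of -0.48 on the log2 scale had a wide SE, 0.20 (edgeR adjusted p = 0.121). The proteases as a group summed to 96.7% of WT.

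Several protease genes share sequence with a neighbour on the opposite strand, and the strand setting of the counting was not given in the sources used here. Of the 31-base words in Ctsa transcripts 7.67% also occur in Pltp, which went from 46.6 to 24.1 CPM, and of those in Ctsb 12.4% occur in Fdft1, which went from 62.8 to 77.7 CPM. For Ctsd 33.2% of words occur in Gm49369, which lies on the same strand. For Ctsl 28.2% occur in other annotated genes, mostly the opposite-strand Gm47123 (25.8%). No level of Gm49369 or Gm47123 was at hand. Beyond the proteases this share was 19.9% for Sgsh, mostly with Card14 (0.164 CPM in WT and 0.284 CPM in Srrm2+/-). It was 11.4% for Hexa, with Tmem202 (0 CPM in both groups). The values of Ctsa and Ctsb are therefore less certain than those of Tfeb (0.0177% shared) or Neu1 (0.161%). How far reads were shared between genes was not tested.

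**Figure D3:**
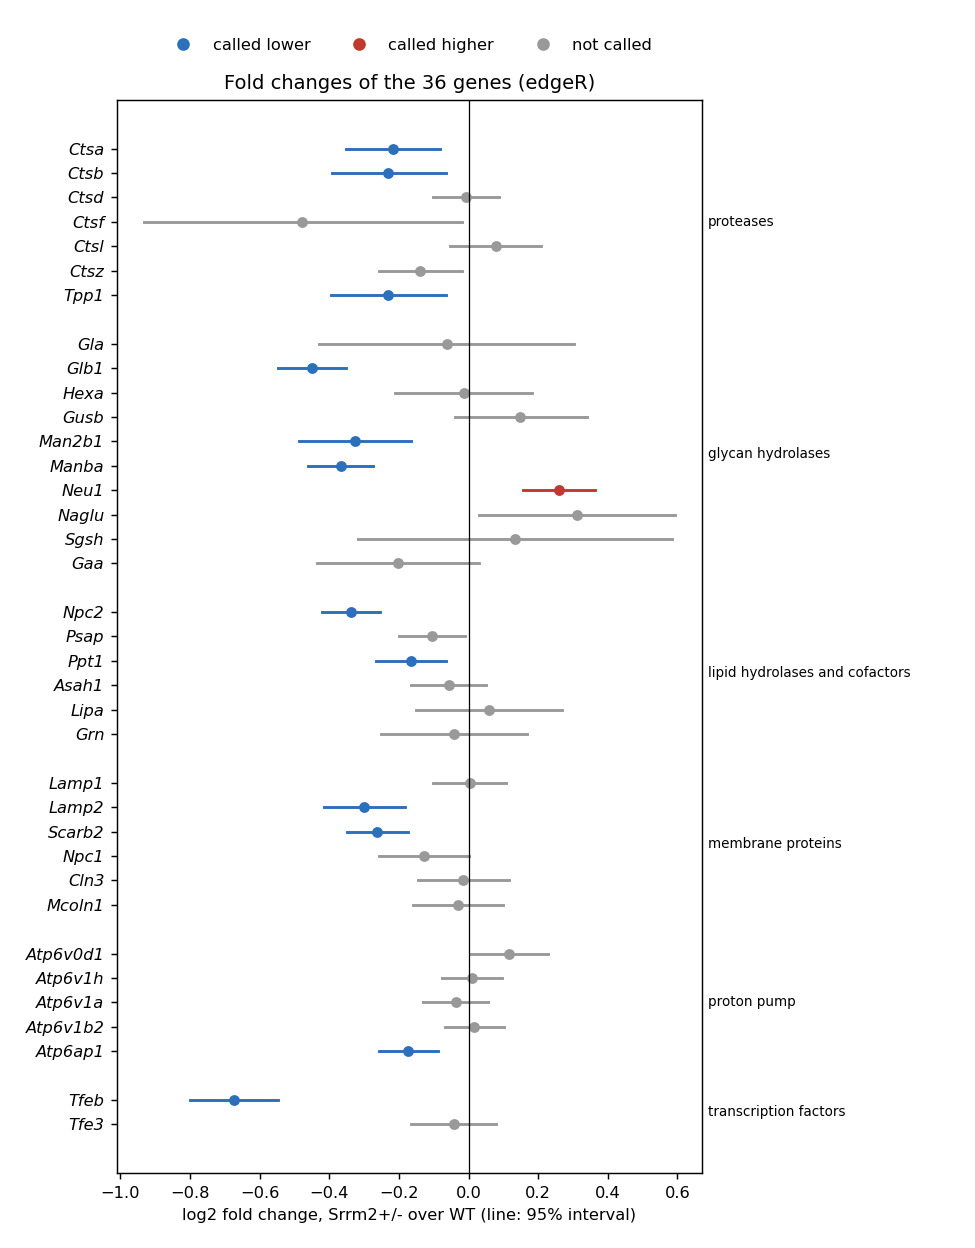
Log2 fold change of Srrm2+/- over WT (x axis) from edgeR with its 95% interval (line) for the 36 genes by role, blue for called lower, red for called higher and grey for not called. Called falls occur in all 6 roles, and the single called rise is Neu1.

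Genes of lipid breakdown and its cofactors fell in 2 of 6 cases. Npc2, which encodes the soluble carrier that binds cholesterol in the lumen, was measured at 141, 145 and 143 CPM in WT and at 115, 114 and 110 CPM in Srrm2+/-. Both groups were tight and well apart (log2 fold change -0.34, SE 0.04, edgeR adjusted p = 0.000243). Ppt1, the gene for palmitoyl-protein thioesterase, had 47.0, 46.1 and 45.1 CPM in WT and 42.4, 39.5 and 41.2 CPM in Srrm2+/- (log2 fold change -0.17, SE 0.05, edgeR adjusted p = 0.0256). The Ppt1 call was lost under 5 of the 14 settings, among them without WT replicate 1 or 2 and without Srrm2+/- replicate 2 or 3. It shares 2.70% of its words with the opposite-strand gene Cap1, which rose from 163 to 212 CPM. Psap, whose product is cut into the saposins that help lipid hydrolases, was slightly lower in every Srrm2+/- library without a call (log2 fold change -0.11, SE 0.04, edgeR adjusted p = 0.103), and its closest libraries were 93.3 CPM in WT and 93.1 CPM in Srrm2+/-. Asah1 (acid ceramidase), Lipa (acid lipase) and Grn (progranulin) had overlapping groups and log2 fold changes of -0.06, 0.06 and -0.04.

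Lysosomal membrane proteins split, with 2 of 6 called lower. Lamp2, the gene for a major glycoprotein of the membrane that also acts in chaperone-mediated autophagy, was measured at 141, 134 and 140 CPM in WT and at 119, 114 and 105 CPM in Srrm2+/- (log2 fold change -0.30, SE 0.05, edgeR adjusted p = 0.0029). Lamp1, the gene for the other major glycoprotein, had 344, 337 and 345 CPM in WT and 365, 330 and 334 CPM in Srrm2+/-. For Lamp1 the groups overlapped, the log2 fold change was 0.00 and the 95% interval ran from -0.10 to 0.11, which does not meet that of Lamp2 (-0.42 to -0.18). Per kilobase of exon Lamp1 was the highest of the 36 genes, at 128 in both groups.

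Scarb2, which encodes LIMP-2, the receptor that carries glucocerebrosidase to the lysosome, was measured at 167, 179 and 176 CPM in WT and at 146, 145 and 145 CPM in Srrm2+/-. The Srrm2+/- libraries lay close together, below all WT libraries (log2 fold change -0.26, SE 0.04, edgeR adjusted p = 0.00131). Npc1, the gene for the membrane partner of NPC2 in cholesterol export, was a little lower in every Srrm2+/- library (33.1, 34.5 and 33.1 against 30.4, 28.9 and 32.9 CPM) and was not called (log2 fold change -0.13, SE 0.06, edgeR adjusted p = 0.144). Cln3 and the calcium channel gene Mcoln1 stood at -0.01 and -0.03 on the log2 scale with overlapping groups.

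The proton pump changed least. Its 5 genes in the set summed to 98.8% of WT with a median log2 fold change of 0.01, and 1 was called. Atp6ap1, which encodes an accessory subunit needed for pump assembly, was measured at 76.6, 76.5 and 76.1 CPM in WT and at 68.8, 68.8 and 65.7 CPM in Srrm2+/- (log2 fold change -0.17, SE 0.04, edgeR adjusted p = 0.00878). Its WT libraries were the tightest of all 36 genes, and the groups lay apart. The subunits of the ATP-hydrolysing part, Atp6v1a, Atp6v1b2 and Atp6v1h, had log2 fold changes of -0.04, 0.02 and 0.01 with overlapping groups and 95% intervals within -0.13 and 0.10. Atp6v0d1, a subunit of the membrane part, was higher in every Srrm2+/- library (64.8 ± 2.85 against 70.2 ± 3.02 CPM, SD, n = 3) without a call (log2 fold change 0.12, SE 0.05, edgeR adjusted p = 0.117).

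The rest of the pathway was followed through 6 further lists of 132 genes, of which 128 were tested. Across them 9 genes were called higher (7.03%) and 21 lower (16.4%), with a median log2 fold change of -0.04. Set beside the 13.6% and 11.7% of all tested genes given above, and the 15.4% and 17.7% of those at 10 CPM or more, a smaller share of these genes was called higher, and the share called lower lay between the backgrounds.

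Among 29 tested genes for other soluble lysosomal proteins, 6 were called lower and 2 higher. Dnase2a, the gene for the acid DNase, and Dpp7, a peptidase gene, fell with log2 fold changes of -0.53 and -0.38. The opposite and largest change of any lysosomal enzyme in these lists was that of Ctsc, the gene for the dipeptidyl peptidase cathepsin C, which activates serine proteases of immune cells. Ctsc was measured at 6.07, 5.92 and 6.95 CPM in WT and at 17.2, 16.3 and 17.7 CPM in Srrm2+/-, a 2.70-fold rise (log2 fold change 1.43, SE 0.08, edgeR adjusted p = 5.68e-06). Epdr1 rose by 0.37 on the log2 scale.

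Of 23 genes for other lysosomal membrane proteins, 4 were called lower and 2 higher. Ostm1, which encodes the partner subunit of the chloride-proton exchanger CLCN7, fell (log2 fold change -0.24), as did the transporter gene Mfsd12 (-0.28). Clcn7 itself was called lower (-0.36), but lost the call under 8 of the 14 settings, limma voom, the replicate block and every fit without 1 library except that without WT replicate 1 among them. The tetraspanin gene Cd63 rose from 49.6, 52.7 and 56.3 CPM to 71.8, 65.3 and 61.8 CPM (log2 fold change 0.33, edgeR adjusted p = 0.00658), and Laptm4b rose by 0.20. Of 14 other pump subunits 1 was called, Atp6ap2, an accessory subunit like Atp6ap1, and it too was lower (log2 fold change -0.21, edgeR adjusted p = 0.0287).

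Of 22 tested genes for the control of the MiT-TFE factors and the docking of mTORC1, 4 were called lower and 1 higher. Besides Mitf, the Rag GTPase genes Rragd and Rragb, whose products bring mTORC1 to the lysosome, were lower (log2 fold changes -0.25 and -0.16), and Lamtor1, which encodes the membrane anchor of the Ragulator complex, was higher (0.18, with the call lost under 6 of the 14 settings). Of 10 genes on the mannose-6-phosphate route, which sorts hydrolases to lysosomes, Gnptg was lower (-0.31) and the sorting receptor gene Sort1 higher (0.22, with the call lost under 6 of the 14 settings). Of 30 autophagy genes 5 were called lower and 3 higher. The kinase gene Ulk1, which starts autophagy, went from 36.7, 37.1 and 39.4 CPM to 30.1, 25.7 and 25.6 CPM (log2 fold change -0.48, edgeR adjusted p = 0.00135), and Atg13 was lower as well (-0.28). Wipi1 was called lower (-0.32) near the threshold, and it lost the call under 10 of the 14 settings, DESeq2, the replicate block and each fit without 1 library among them. The receptor gene Optn rose from 19.1, 18.8 and 19.7 CPM to 32.5, 31.3 and 34.5 CPM (log2 fold change 0.77, edgeR adjusted p = 1.86e-05), with Vmp1 (0.51) and Map1lc3a (0.46), which act in the formation of autophagosomes.

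**Figure D4:**
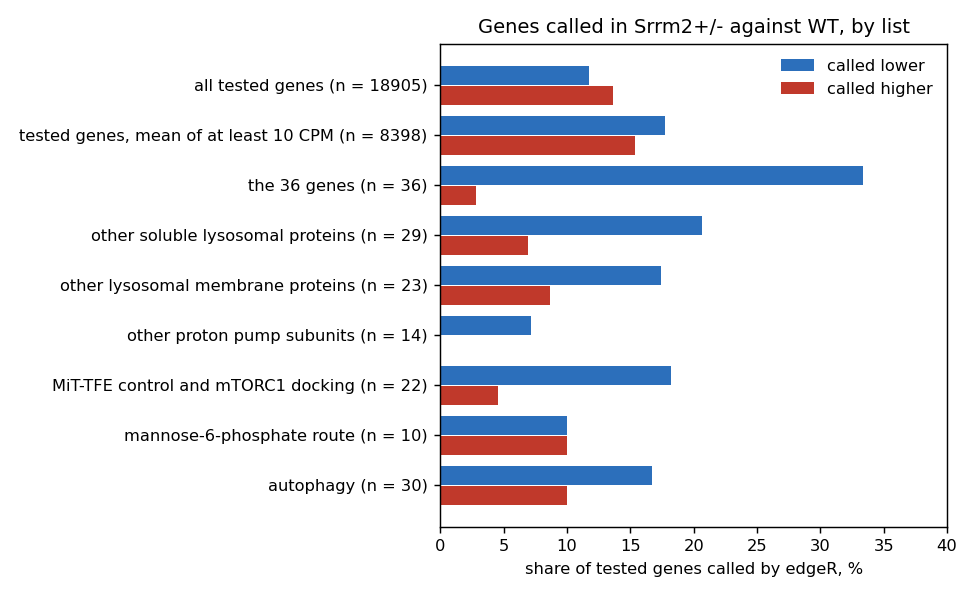
Share of tested genes (x axis, percent) called lower (blue) or higher (red) by edgeR for all tested genes, tested genes at 10 CPM or more, the 36 genes and 6 further lists, with n tested genes beside each name. The 36 genes have the longest blue bar, 33.3%, and the other lists lie between 7.14% and 20.7% called lower.

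Promoters were read because the MiT-TFE factors bind E-boxes, and because Tfeb and Mitf were lower while Tfe3 libraries overlapped. RefSeq windows on GRCm38.p6, from 250 bases before to 50 bases after a RefSeq transcript start, were at hand for 31 of the 36 genes. Such a start can lie inside the gene as GENCODE bounds it, as for Ctsa and Cln3, and distances are counted from the RefSeq start. The words searched on both strands were TCACGTGA (a palindrome known from coordinated lysosome gene promoters), GTCACGTG and the shorter core CACGTG, which is contained in both longer words, and one site can hold more than 1 word. The palindrome occurred in 7 of the 31 genes (22.6%), beside 1.12% of 27025 genes with a window and 1.94% of tested genes with one. GTCACGTG occurred in 10 (32.3%), beside 2.55% and 4.33%, and the core in 14 (45.2%), beside 8.09% and 11.2%. The palindrome was known from lysosome gene promoters and the genes were chosen by name. The higher shares in the set are therefore not a finding of these libraries.

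The sites of the palindrome are given with their surroundings on the strand of the gene, 5′ to 3′, and the palindrome in capitals, because these are the genes that carry the word most tied to TFEB in their promoters.
Ctsa, chr2:164833745-164833782: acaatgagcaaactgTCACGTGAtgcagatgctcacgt
Ctsd, chr7:142387904-142387941, minus strand: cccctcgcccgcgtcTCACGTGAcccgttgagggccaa
Cln3, chr7:126583336-126583373, minus strand: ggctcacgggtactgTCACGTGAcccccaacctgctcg
Mcoln1, chr8:3500458-3500495: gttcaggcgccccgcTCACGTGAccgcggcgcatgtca
Atp6v0d1, chr8:105566046-105566083, minus strand: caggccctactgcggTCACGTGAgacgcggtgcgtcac
Atp6v1a, chr16:44139369-44139406, minus strand: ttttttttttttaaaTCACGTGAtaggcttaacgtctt
Gla, chrX:134601178-134601215, minus strand: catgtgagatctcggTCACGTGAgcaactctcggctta

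These sites began 13 (Ctsa), 99 (Ctsd), 122 (Cln3), 46 (Mcoln1), 4 (Atp6v0d1), 132 (Atp6v1a) and 195 (Gla) bases before the start, and Ctsa and Gla had a second one in the window. Of the 7 genes with the palindrome 1 was called lower, Ctsa, and none higher, with a median log2 fold change of -0.03 and a range from -0.22 to 0.12. Of the 24 genes with a window and no palindrome 10 were called lower and 1 higher, with a median of -0.15. With the shorter core as the criterion, 2 of 14 genes with a match were called lower (median -0.02) and 9 of 17 without one were (median -0.17). The genes without a match include Tfeb, itself called lower, and Tfe3. No such shares were computed over all tested genes, the difference was not tested, and the members in each class are few. The part of the MiT-TFE factors in these changes was not tested.

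**Figure D5:**
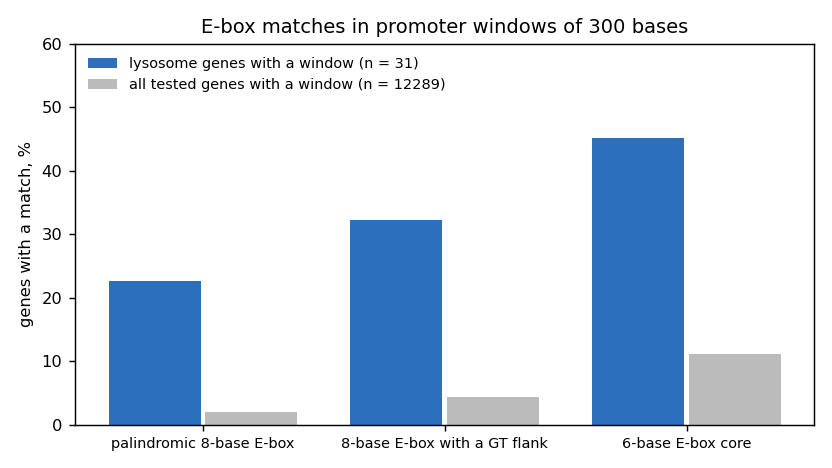
Percent of genes (y axis) with a match to each of 3 E-box words in the promoter window. Blue is for the set (n = 31, Tfeb and Tfe3 among them) and grey for all tested genes with a window (n = 12289). Genes of the set stand at 22.6%, 32.3% and 45.2%, and tested genes at 1.94%, 4.33% and 11.2%.

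Glb1 and Manba, the enzyme genes of the set with the largest called falls, and Neu1, its only called rise, are shown. The 250 bases before their starts are given, with the E-box core in capitals where it occurs. In Glb1 the core lies 48 bases before the start, within GTCACGTG. In Manba and Neu1, which moved in opposite directions, the core did not occur in the window.
Glb1, chr9:114400828-114401077: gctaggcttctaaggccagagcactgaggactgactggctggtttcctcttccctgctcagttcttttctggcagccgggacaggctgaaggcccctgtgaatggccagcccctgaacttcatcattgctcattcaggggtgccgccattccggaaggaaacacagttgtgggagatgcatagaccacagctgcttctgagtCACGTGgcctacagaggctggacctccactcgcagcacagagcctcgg
Manba, chr3:135485361-135485610: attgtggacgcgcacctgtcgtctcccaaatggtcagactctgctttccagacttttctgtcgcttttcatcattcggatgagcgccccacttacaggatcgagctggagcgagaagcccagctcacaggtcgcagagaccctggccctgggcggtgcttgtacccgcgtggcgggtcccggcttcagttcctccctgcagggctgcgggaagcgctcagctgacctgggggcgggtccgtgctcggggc
Neu1, chr17:34931003-34931252: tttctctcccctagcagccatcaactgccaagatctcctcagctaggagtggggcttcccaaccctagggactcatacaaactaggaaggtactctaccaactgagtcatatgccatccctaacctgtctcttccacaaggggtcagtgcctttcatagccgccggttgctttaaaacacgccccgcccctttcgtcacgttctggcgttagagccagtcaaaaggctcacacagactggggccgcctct

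Tfeb has 3 starts with a window in RefSeq, and none of the 3 windows held the core. The first is shown because it lies next to the start of the gene in GENCODE.
Tfeb, chr17:47736787-47737036: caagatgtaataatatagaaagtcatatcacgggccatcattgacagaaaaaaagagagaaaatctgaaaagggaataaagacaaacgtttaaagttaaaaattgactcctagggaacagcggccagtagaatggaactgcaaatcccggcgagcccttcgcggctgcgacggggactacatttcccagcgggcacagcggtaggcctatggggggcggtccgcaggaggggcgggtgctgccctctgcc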

How the data were processed

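Total RNA libraries (TruSeq Stranded, paired-end) were pseudo-aligned by the authors with kallisto 0.46.1 to the GENCODE mouse transcriptome (mm10/GRCm38), and estimated counts per gene were deposited without normalization. The strand setting was not given in the sources used here. Estimated counts were rounded to whole numbers. Symbols and positions came from GENCODE release M21 (42156 of 42450 identifiers matched). Genes past filterByExpr were tested with edgeR 4.0.16 (R 4.3.3; TMM, glmQLFit and glmQLFTest, two-sided, genotype as the only term, all 6 libraries), with Benjamini-Hochberg adjustment over 18905 genes. The SE is the log2 fold change divided by the square root of F, and intervals cover 95%. The scripts were tested on simulated counts.

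Groups and replicate numbers came from the sample titles. Same-numbered libraries did not deviate together (correlations -0.028, -0.034 and -0.03), and their numbers were not read as pairs. Replicates are batches of 1 line, so p-values measure the spread between batches. Alternatives were RLE and upper quartile scaling, DESeq2 1.42.0, limma voom 3.58.1, another filter, a replicate block, a fit without mitochondrial, rRNA and short RNA genes, leaving out each library, and 2 stricter call rules.

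The 36 genes and all lists were chosen with earlier results of these data known. Named genes were Srrm2, the 36 genes and, from each other list, up to 3 called rises and 3 called falls of largest size. One gene named by this rule is not reported here. Stem cell, endoderm, macrophage and fibroblast markers were summed. Sequence sharing was counted as 31-base words of annotated transcripts on either strand. Promoter sequences are from RefSeq (GRCm38.p6), and genes without a window there are Ctsb, Asah1, Npc1, Atp6v1h and Atp6v1b2.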

Additional observations from a re-analysis of the deposited data

How the results depend on the processing

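The log2 fold changes of Tfeb, Glb1, Manba, Man2b1, Npc2, Lamp2, Scarb2, Atp6ap1 and Neu1 kept their direction and their call under all 14 alternatives run per gene. The calls of Ctsa, Ctsb, Tpp1 and Ppt1 were lost under 6, 8, 9 and 5 of them. Lower calls among the 36 genes numbered 12 with RLE and DESeq2, 11 with upper quartile scaling, 10 with limma voom and 8 to 12 without single libraries, the lowest without Srrm2+/- replicate 2 or 3. At an adjusted p under 0.01 there were 8. In the replicate block fit 10 were lower (Ctsa and Ctsb were lost), 1 was higher and 4166 of all tested genes were called, against 4781 without it; the block changed no other call of the 36 genes. Leaving out single libraries gave 3515 to 4122 calls over all genes. The stricter rules gave 2779 calls over all genes (adjusted p under 0.01) and 2293 (log2 fold change of at least 0.5 as well), and the latter left 1 lower call, Tfeb, and 0 higher. Of the other named genes, the calls of Wipi1 (10 of 14), Clcn7 (8), Lamtor1 (6), Sort1 (6), Atp6ap2 (5), Epdr1 (4), Laptm4b (3), Rragb (3) and Atg13 (2) were lost under the number given, each without at least 1 of the libraries, and those of Clcn7, Lamtor1 and Wipi1 also under the block. Mfsd12 lost its call only at an adjusted p under 0.01. Ctsf was called without WT replicate 2 and Gaa without WT replicate 1. Signs turned only for uncalled genes near 0, when 1 library was left out: over these fits Ctsd ran from -0.033 to 0.016, Gla from -0.240 to 0.096, Hexa from -0.124 to 0.056, Grn from -0.144 to 0.035, Lamp1 from -0.042 to 0.032, Cln3 from -0.047 to 0.005, Mcoln1 from -0.068 to 0.022, Atp6v1h from -0.003 to 0.039, Atp6v1b2 from -0.004 to 0.035 and Tfe3 from -0.088 to 0.004. Lamp1 also turned, to -0.000, without short RNA, rRNA and mitochondrial genes. The cause of these shifts was not tested.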
